A study of Mus musculus with 51 samples.

Results

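The 12 genes described here are pluripotency factors measured while mouse embryonic stem cells (mESCs) left the pluripotent state for neuromesodermal progenitors (NMPs), the bipotent cells that give rise to spinal cord and paraxial mesoderm. They are Nr0b1, Tfcp2l1, Tbx3, Sall4, Zfp42, Fbxo15, Tdgf1, Pecam1, Gdf3, Utf1, Dppa3 and Gbx2. They were taken from a table of 34 probes, each probe being 1 gene, as those which the study lists as pluripotency factors, leaving out Pou5f1, Nanog, Sox2, Klf2, Klf4, Klf5, Esrrb and Foxd3; the other 14 probes are differentiation and Wnt pathway genes. The list is by name and not by a measured value. Levels are given as log2 RPKM, the log2 of reads scaled to gene length and library depth, and a difference of 1 on this scale is a factor of 2.

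The cells were male C57BL/6/Cast F1 mESCs of 2 genotypes. The wt cells carried Smchd1[fl/+], and the mat del cells carried Smchd1[del/+], in which the maternal allele of Smchd1, a chromatin protein that silences genes on the inactive X and at imprinted clusters, had been deleted in the oocyte by Zp3-Cre; the paternal allele was intact in both. Cells in DME medium with LIF formed day 0, and libraries followed on day 1, day 2, day 2.5, day 3 and day 4 of differentiation, with FGF first, a Wnt activator from day 2 and GDF11 from day 3. Each group held 4 libraries except wt day 1, mat del day 0 and mat del day 2.5 with 3, which gave 23 wt and 22 mat del libraries. Replicates 1 to 3 are labelled as 1 line and replicate 4 as a second line, while the study's legends describe 2 technical replicates of each of 2 lines. The labels were followed here, and under either account p-values measure in part a technical spread. By the labels, the mat del day 0 and day 2.5 groups hold line 1 alone, while the other groups hold both lines, so that line and day, or line and genotype, cannot be fully told apart where these 2 groups enter. Another 6 lines, 3 of each genotype, were kept in 2i LIF, which holds mESCs in the naive state.

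Pluripotency rests on transcription factors that sustain each other's expression, and naive cells add factors that are lost as soon as LIF and the naive state are withdrawn, while others persist into the primed, epiblast-like state before lineage genes take over. Nr0b1 (DAX1, a nuclear receptor corepressor), Tfcp2l1 (a target of LIF and STAT3 signalling), Tbx3 (a T-box factor) and Zfp42 (REX1, a zinc finger protein) are used as marks of the naive state. Sall4 is a zinc finger factor, Utf1 a chromatin-bound factor, Dppa3 (STELLA) a protein that protects maternal methylation, Gdf3 a TGF-beta family ligand, Tdgf1 (CRIPTO) the co-receptor of Nodal, Fbxo15 an F-box protein, Pecam1 an adhesion molecule and Gbx2 a homeobox factor downstream of LIF that later acts in the neural axis.

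RefSeq promoter sequences (GRCm38.p6) were at hand for 6 of the 12 members, Gbx2, Nr0b1, Tdgf1, Tfcp2l1, Utf1 and Zfp42. The 250 bases before the start site are shown for Nr0b1, Tfcp2l1, Zfp42 and Tdgf1, 5′ to 3′ on the gene's strand. Nr0b1 (chrX:86191525-86191774, plus strand) and Tfcp2l1 (chr1:118627695-118627944, plus strand) had all wt day 1 libraries below all of wt day 0. So did Gbx2, whose sequence is not shown, and 38.2% of the 34 probes. For Zfp42 (chr8:43307010-43307259, minus strand) and Tdgf1 (chr9:110946159-110946408, minus strand) these days overlapped, as they did for Utf1, also not shown. Capitals mark exact matches, on either strand, to an octamer (ATGCAAAT), a SOX (CATTGTT), an ESRRB (AAGGTCA), a KLF (GGGTGTGG or GGGCGTGG) or a TCF (CTTTGAT) word.
Nr0b1: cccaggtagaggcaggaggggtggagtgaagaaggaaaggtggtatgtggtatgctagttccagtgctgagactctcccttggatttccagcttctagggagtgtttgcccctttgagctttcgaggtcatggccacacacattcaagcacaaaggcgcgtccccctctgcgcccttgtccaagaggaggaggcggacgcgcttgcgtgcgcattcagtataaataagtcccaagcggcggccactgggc
Tfcp2l1: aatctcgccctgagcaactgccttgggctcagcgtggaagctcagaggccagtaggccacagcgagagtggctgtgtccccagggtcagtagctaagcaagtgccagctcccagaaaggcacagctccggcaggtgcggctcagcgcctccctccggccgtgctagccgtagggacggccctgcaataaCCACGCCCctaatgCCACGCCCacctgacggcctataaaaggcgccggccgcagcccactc
Zfp42: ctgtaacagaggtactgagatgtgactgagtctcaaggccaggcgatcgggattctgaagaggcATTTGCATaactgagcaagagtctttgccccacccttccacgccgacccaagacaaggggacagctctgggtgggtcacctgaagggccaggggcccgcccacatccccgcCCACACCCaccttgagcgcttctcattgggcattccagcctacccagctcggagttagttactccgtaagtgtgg
Tdgf1: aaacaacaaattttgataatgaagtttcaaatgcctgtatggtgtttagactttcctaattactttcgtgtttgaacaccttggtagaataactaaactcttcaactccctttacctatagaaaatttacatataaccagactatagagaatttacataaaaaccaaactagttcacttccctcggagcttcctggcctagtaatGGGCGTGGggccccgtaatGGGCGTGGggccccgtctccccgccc
The KLF word stood in 3 of the 6 member promoters, with 2 copies each in Tfcp2l1 and Tdgf1 and 1 copy in Zfp42, against 7.72% of 32817 promoters of this length. The octamer stood in Zfp42 alone, 186 bases before the start, against 1.6% of all promoters. The SOX, ESRRB and TCF words, held by 3.29%, 4.08% and 3.21% of all promoters, were in none of the 6 windows, and Nr0b1, Utf1 and Gbx2 held no match. A match is a description of these letters and does not show binding.

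Some libraries stood apart. In mat del day 1 replicate 4, all 36 probes on chromosomes 9 to 19 and X in both RPKM tables were at 0 reads, among them Tdgf1 on chromosome 9, Fbxo15 on 18, Nr0b1 on X and Pecam1 on 11, as were the reference genes Ctnnb1 and Gsk3b. Of the 37 probes on chromosomes 1 to 8, 8 were at 0 reads. Set against the mean of the other 3 mat del day 1 libraries, its 8 members on chromosomes 1 to 8 had a median difference of 0.84 log2 and the 4 others one of -9.49 log2. A gene without reads is listed at the value of 0.9 reads, so for these 4 members the library gives no level. In the count column equal to it, 100% of reads lay on chromosomes 1 to 8, against a median of 46.9% in the other columns. Levels of the 8 members there were scaled to those reads, so they are not on the scale of the other libraries. Results that rest on this library are given with and without it. In wt day 2, mat del day 0 and mat del day 2.5, replicate 3 of each, Ctnnb1 lay between 4.52 and 4.77 log2 RPKM, against a mean of 7.34 ± 0.24 (SD, n = 4) at wt day 4, and the implied depth was 3.33 to 3.83 times the summed gene counts, against 1.02 to 1.26 in the other libraries with an equal count column. Over the 45 libraries the depth implied by the RPKM steps ran from 1470029 to 126805800 reads, with a median of 14885313.

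**Figure D1:**
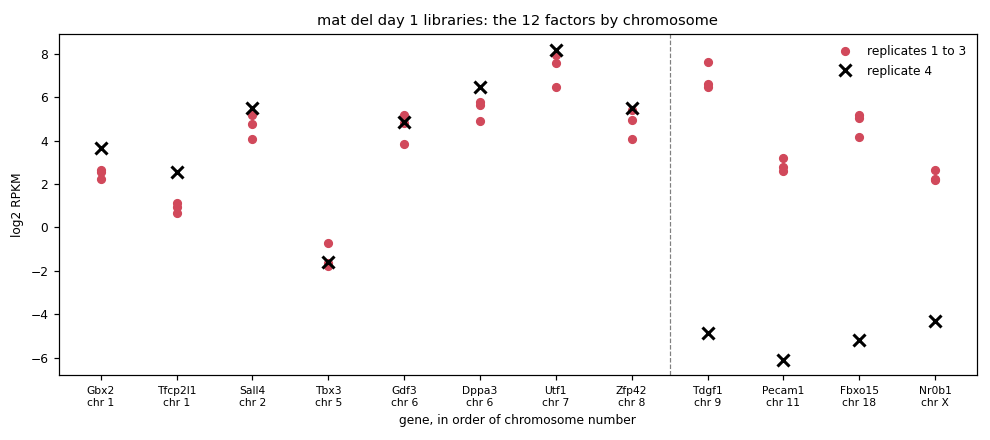
log2 RPKM of the 12 members in the 4 mat del day 1 libraries, genes ordered by chromosome number, circles for replicates 1 to 3 and a cross for replicate 4; the dashed line separates chromosomes 1 to 8 from the rest. Right of the line replicate 4 has no reads and lies at -4.85 for Tdgf1 and -6.10 for Pecam1.

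The cells were checked against markers. The summed RPKM of Pou5f1, Nanog and Sox2, on the log2 scale, was 9.06 to 9.60 at wt day 0 and 4.27 to 5.89 at wt day 4, and 6.22 to 9.51 and 5.41 to 6.09 in mat del, where the lowest day 0 value is that of replicate 3. The 6 NMP markers (Tbra, Nkx1-2, Cdx1, Cdx2, Fgf8 and Wnt3a) summed to 1.49 to 2.31 at wt day 0 and 6.49 to 7.61 at wt day 4, and to 0.58 to 1.66 and 6.46 to 8.25 in mat del. These sums cover the end days alone, while the study places NMPs and mesodermal progenitors at day 3. Nkx1-2 held 4.13, 7.39, 5.36 and 4.83 log2 RPKM at wt day 3 and 0.75, 2.30, 0.60 and -0.34 at wt day 4. Tbra, Cdx1 and Cdx2 were also lower at wt day 4 than at wt day 3 in each replicate. Markers of both states moved with the days, their part in the members' values was not tested, and in bulk samples fewer pluripotent cells and less RNA per cell cannot be told apart. Smchd1 is not among the 34 probes and the count columns of the time course were not used, so the genotypes were checked in the 2i LIF lines alone.

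The first question was which members had fallen by the end. At day 4, 10 of the 12 were lower than at day 0 in each genotype by limma with Benjamini-Hochberg adjustment over the 34 probes at 0.05, the same 10 genes in both; of all 34 probes, 50% were called lower in wt and 44.1% in mat del. The 2 members not called were Tbx3 and Gbx2. No member was called higher than day 0 on any day, while 2.94% of probes were at wt day 2, 26.5% at day 2.5 and 29.4% at day 3 and day 4, with the same shares from day 2.5 to day 4 in mat del; without mat del day 1 replicate 4 the share at day 4 was 32.4% in both. The mat del count is the less stable: without mat del replicate 1 it fell to 6, the calls of Sall4, Fbxo15, Tfcp2l1 and Pecam1 being lost, while line 1 alone gave 10. The smallest called wt falls were those of Tfcp2l1 and Sall4. The median difference of the 12 members was -4.20 log2 in wt and -3.27 in mat del, against -1.45 and -1.17 over all 34 probes, which were themselves picked by the study as pluripotency and differentiation genes. All wt day 4 libraries lay below all wt day 0 libraries for the same 10 members, as for 50% of the 34 probes; in mat del this held for 7 members (Zfp42, Utf1, Gdf3, Tdgf1, Dppa3, Nr0b1 and Pecam1), against 35.3% of probes. Without mat del day 1 replicate 4, Gbx2 joined the mat del calls, at -1.70 (SE 0.81, adjusted p = 0.0485), which made 11 members in mat del against 52.9% of probes, and the wt count stayed at 10, against 50%.

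**Figure D2:**
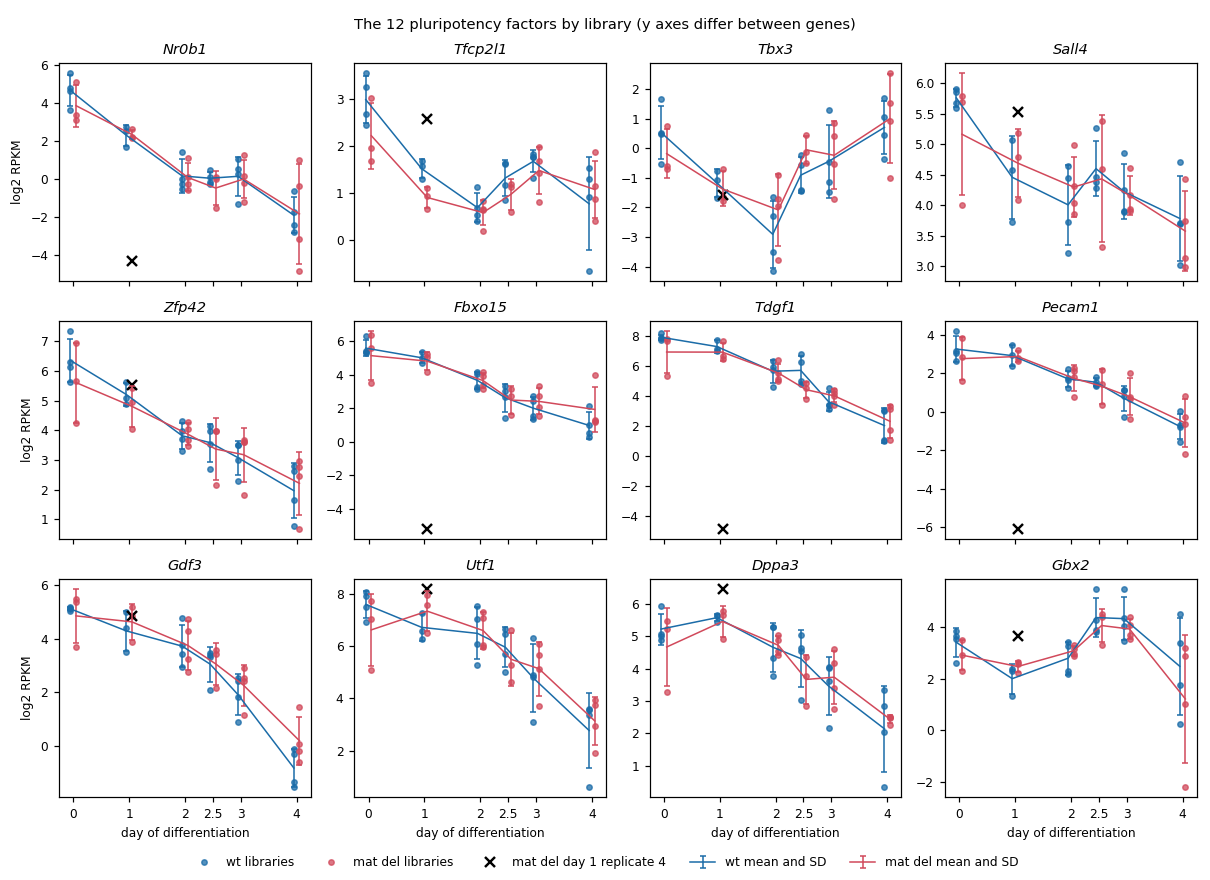
log2 RPKM of each member (y axis, scale set per gene) by day of differentiation (x axis), with 1 circle per library, lines through group means, bars of 1 SD and a black cross for mat del day 1 replicate 4, which is left out of its mean. Most members slope down to day 4, Tbx3 turns at day 2 from a wt mean of -2.91 and Gbx2 peaks at day 2.5 at a wt mean of 4.39.

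The second question was which members fell at once. At wt day 1 none of the 12 was called, although 4 had an unadjusted p under 0.05, and 5.88% of the 34 probes were called lower. Leaving out mat del day 1 replicate 4, which enters this contrast only through the shared estimate of the spread, gave 2 members called, Nr0b1 and Tfcp2l1, against 17.6% of probes. Before any test, 6 members did not overlap between wt day 0 and wt day 1, with every day 1 library lower: Nr0b1, Tfcp2l1, Tbx3, Sall4, Gdf3 and Gbx2; that held for 38.2% of probes. A block on the replicate number called 3 members (Sall4, Tfcp2l1 and Tbx3) and edgeR on the reads recovered from the RPKM values called 0. In mat del the 1 member called at day 1 was Nr0b1, at -3.18 (SE 1.11, adjusted p = 0.0447), against 17.6% of probes, and Nr0b1 was also the 1 member whose mat del day 1 libraries all lay below day 0 (as for 8.82% of probes). That value includes the library without reads on X, and without it the difference was -1.52 (SE 0.89, adjusted p = 0.368) and no member was called (against 2.94% of probes), with 1 member at an unadjusted p under 0.05. The block and edgeR on recovered reads likewise called 0 members at mat del day 1. Without replicate 4, the mat del day 1 libraries of Tfcp2l1 also lay below all of day 0, at 0.66, 0.94 and 1.11 against 3.00, 1.96 and 1.68. The share of probes for which this held was not counted.

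Nr0b1 (chrX:86191764-86195947) was low from day 2 on in wt. The 4 wt day 0 libraries, in replicate order, held 5.58, 3.62, 4.80 and 4.63 log2 RPKM, from 1715, 696, 803 and 268 reads. The 3 wt day 1 libraries held 2.72, 2.52 and 1.68, all below day 0. At wt day 2 the values were 0.01, 1.44, -0.51 and -0.28, again below every day 1 library. The wt difference from day 0 was -2.35 (SE 1.11, adjusted p = 0.17) at day 1, which became -2.35 (SE 0.83, adjusted p = 0.0433) without mat del day 1 replicate 4, and -4.49 (SE 1.02, adjusted p = 0.000717) at day 2. From day 2 to day 3 the wt means stayed between 0.05 and 0.17, and at day 4 the libraries held -1.75, -2.43, -2.80 and -0.63 from 9, 0, 4 and 86 reads. Because 1 of these had no reads, the fitted day 4 difference of -6.56 (SE 1.02, adjusted p = 4.38e-07) and the share of it reached by an earlier day depend on the value given to 0 reads. In mat del, the day 0 libraries held 5.12, 3.10 and 3.37 and replicates 1 to 3 of day 1 2.65, 2.22 and 2.17, so that the 2 days did not overlap there either. By mat del day 4 they held -4.85, 1.01, -0.36 and -3.13 from 0, 35, 21 and 2 reads. Nr0b1 had under 10 reads in 11 of the 45 libraries, the most of any member.

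Tfcp2l1 (chr1:118627945-118685168) had dropped by day 1 in every wt library, and its wt mean was no lower at day 4 than at day 2. Its wt day 0 libraries held 3.54, 2.68, 3.25 and 2.44 log2 RPKM and its day 1 libraries 1.29, 1.68 and 1.57, with no overlap. The low point was day 2, at 0.42, 0.69, 0.53 and 1.12. By day 3 the values were back at 1.76, 1.82, 1.77 and 1.33, above every day 2 library, a difference that was not tested. The smaller step from day 2 to day 2.5 did not pass the test at 0.63 (SE 0.46, adjusted p = 0.397). Against day 0 the wt differences were -1.46 (SE 0.49, adjusted p = 0.0587) on day 1, -2.29 (SE 0.46, adjusted p = 0.000214) on day 2, -1.31 (SE 0.46, adjusted p = 0.00924) on day 3 and -2.21 (SE 0.46, adjusted p = 3.95e-05) on day 4. Without mat del day 1 replicate 4 the day 1 value had an adjusted p of 0.0142. By day 2 the group mean had moved through 104% of its day 0 to day 4 difference. In mat del the day 0 libraries held 3.00, 1.96 and 1.68, the day 1 libraries 0.66, 0.94, 1.11 and 2.56 and the day 2 libraries 0.20, 0.67, 0.84 and 0.64. There the highest day 1 value is the library without chromosomes 9 to 19 and X, and only day 2, at -1.63 (SE 0.49, adjusted p = 0.0238), and day 4, at -1.14 (SE 0.49, adjusted p = 0.0359), were called.

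Tbx3 (chr5:119670669-119684724) fell to day 2 and was higher again by day 2.5. Its wt libraries held 1.65, -0.53, 0.52 and 0.48 log2 RPKM at day 0, -0.77, -1.67 and -1.07 at day 1 and -1.65, -3.52, -2.30 and -4.15 at day 2. At day 2.5, after the Wnt activator had been added, they held -0.23, -1.46, -1.39 and -0.55. At day 4 they held 1.04, 1.71, -0.37 and 0.43 and overlapped day 0. The wt day 2 difference from day 0 was -3.43 (SE 0.71, adjusted p = 0.000232), and the step from day 2 to day 2.5 was 2.00 (SE 0.71, adjusted p = 0.0197), the 1 member called higher than on the day before, against 35.3% of probes. In mat del the same step was 2.03 (SE 0.76, adjusted p = 0.0323), again the 1 member called, against 32.4% of probes; its day 2 libraries held -1.95, -1.70, -0.90 and -3.78 and its day 2.5 libraries -0.48, 0.44 and -0.12. The step was called in 14 of 23 alternative settings in wt and in 11 of 23 in mat del, and edgeR on recovered reads gave adjusted p = 0.0571 and 0.057. The reads behind the wt day 2 values were 65, 8, 18 and 1. At day 4 Tbx3 lay 0.17 log2 above day 0 in wt (adjusted p = 0.856) and 1.18 above it in mat del (adjusted p = 0.158), neither of them called; with the replicate block the mat del value was 1.63 (SE 0.59, adjusted p = 0.0149) and was called.

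Sall4 (chr2:168748332-168767943) had the smallest called fall in wt. Its wt day 0 libraries lay close together at 5.90, 5.60, 5.86 and 5.68 log2 RPKM, and all day 1 libraries lay below them at 4.59, 5.07 and 3.73. On day 4 the libraries held 3.69, 4.71, 3.72 and 3.02. The wt difference was -1.30 (SE 0.53, adjusted p = 0.131) on day 1, -1.75 (SE 0.49, adjusted p = 0.00347) on day 2 and -1.97 (SE 0.49, adjusted p = 0.000402) on day 4, a 3.93-fold lower mean. In mat del, day 0 held 5.69, 5.79 and 4.01 and day 4 3.75, 4.44, 2.99 and 3.14, which overlapped because of replicate 3 of day 0, and only day 4 was called, at -1.59 (SE 0.53, adjusted p = 0.00795). Sall4 had at least 139 reads in every library, so its values carry less counting error than those of Nr0b1 or Tbx3.

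Zfp42, Fbxo15, Tdgf1 and Pecam1 went down over several days. For Zfp42 (chr8:43295063-43306980) the wt day 0 libraries held 7.34, 5.63, 6.13 and 6.30 log2 RPKM, those of day 2 4.31, 3.69, 3.29 and 3.97 and those of day 4 2.62, 1.67, 0.79 and 2.80, with no overlap between these days. On wt day 1 Zfp42 held 5.63, 4.90 and 5.09, its highest value level with its lowest of day 0. Its wt differences were -2.53 (SE 0.59, adjusted p = 0.000717) on day 2 and -4.38 (SE 0.59, adjusted p = 2.85e-08) on day 4, 20.9-fold lower in the mean. The mat del libraries held 6.93, 5.64 and 4.24 at day 0 and 2.75, 2.96, 2.48 and 0.67 at day 4, at -3.39 (SE 0.64, adjusted p = 1.41e-05). Zfp42, often used as a reporter of exit from the naive state, was first called on day 2 in wt and on day 2.5 in mat del, at -2.24 (SE 0.68, adjusted p = 0.00606), and without mat del day 1 replicate 4 on day 2 in both.

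Tdgf1 (chr9:110939603-110946158), the Nodal co-receptor, had the highest level at day 0 of the 4 genes in this group per length of exon, with wt libraries at 7.73, 7.88, 8.16 and 7.85 log2 RPKM. It still held 7.14, 6.98 and 7.75 at day 1 and 5.95, 5.72, 4.59 and 6.34 at day 2. By day 3 it held 3.41, 3.42, 3.12 and 4.54 and by day 4 3.00, 1.09, 1.01 and 3.05. Across all 45 libraries its first called day was day 3, at -4.28 (SE 1.31, adjusted p = 0.00378); without mat del day 1 replicate 4 it was day 2, at -2.26 (SE 0.57, adjusted p = 0.00112). The difference on day 2 was the same in both fits, and the standard error was not. In mat del the day 4 difference was -4.61 (SE 1.41, adjusted p = 0.00394), from 7.82, 7.64 and 5.31 at day 0 to 3.35, 3.11, 1.74 and 1.09.

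Fbxo15 (chr18:84934782-84981473) fell from 6.29, 5.39, 5.37 and 5.28 log2 RPKM at wt day 0 to 2.68, 1.44, 3.02 and 3.35 at day 2.5 and 1.00, 0.29, 0.50 and 2.11 at day 4. The first called day was day 2.5 over all libraries, at -2.96 (SE 1.16, adjusted p = 0.0279), and day 2 without mat del day 1 replicate 4, at -1.92 (SE 0.58, adjusted p = 0.00434). In mat del day 4 the libraries held 1.29, 1.25, 3.97 and 1.20, replicate 3 being the high one, and the difference from day 0 was -3.20 (SE 1.25, adjusted p = 0.0206), which with the replicate block had adjusted p = 0.0503. Pecam1 (chr11:106654217-106750628) fell from 4.20, 3.13, 3.07 and 2.63 to 2.24, 1.75, 1.21 and 1.64 at day 2 and -0.78, 0.03, -1.58 and -0.70 at day 4 in wt, with -2.56 (SE 1.05, adjusted p = 0.026) on day 3 and -1.55 (SE 0.55, adjusted p = 0.0137) on day 2 without the doubted library. These 4 members missing from mat del day 1 replicate 4 (Tdgf1, Fbxo15, Pecam1 and Nr0b1) had a median standard error of 1.11 for wt day 4 against day 0 with that library and 0.58 without it, while for the other 8 it was 0.59 and 0.56. The wt means are the same in both fits.

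**Figure D3:**
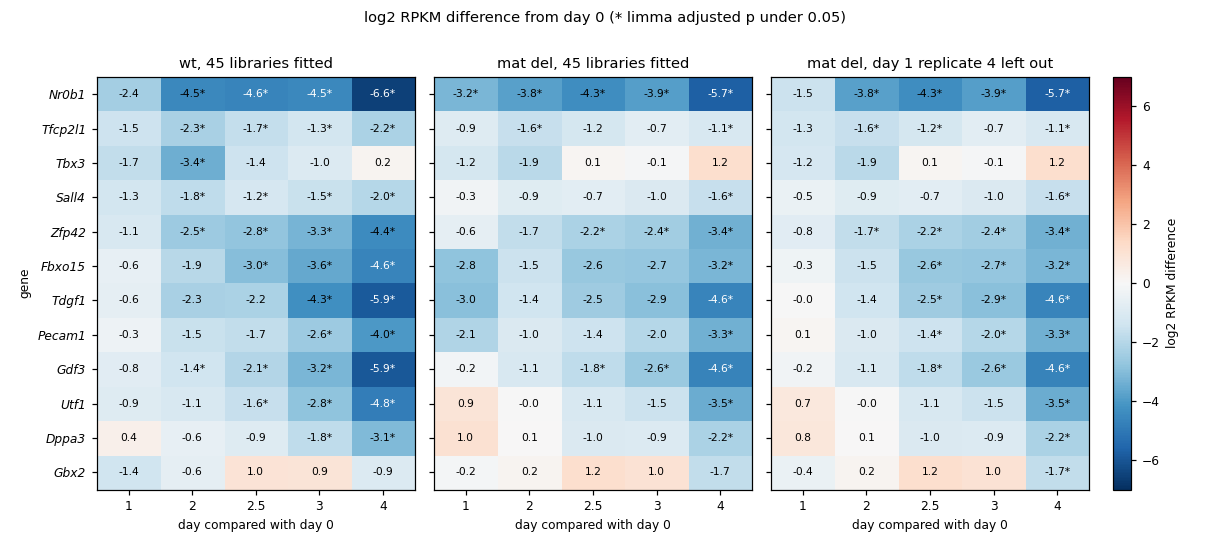
log2 RPKM difference of each day (x axis) from day 0 for each member (1 line per gene), in wt and mat del fitted with all 45 libraries and in mat del without day 1 replicate 4; colour and printed value give the difference and a star an adjusted p under 0.05. In wt the stars begin at day 2 and mark 10 genes at day 4, and the day 1 values of Tdgf1, Fbxo15, Nr0b1 and Pecam1 in mat del shrink when the library is left out.

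Gdf3, Utf1 and Dppa3 had covered the smallest shares of their day 0 to day 4 difference at wt day 2.5, 34.7%, 34% and 29.5%, against 37.5% for Tdgf1 and 42.9% for Pecam1. Gdf3 (chr6:122605403-122610087), the ligand, held 5.17, 5.09, 5.14 and 5.03 log2 RPKM at wt day 0, 2.53, 0.89, 1.82 and 2.43 at day 3 and -1.35, -0.11, -1.52 and -0.29 at day 4. Its step from day 3 to day 4 was -2.73 (SE 0.56, adjusted p = 0.000421) in wt and -2.06 (SE 0.56, adjusted p = 0.00826) in mat del, where day 4 held -0.17, 1.46, -0.59 and 0.09. That step was called in 23 of 24 alternative settings in wt (adjusted p up to 0.105 over these settings) and in 21 of 24 in mat del (up to 0.285). Smaller falls were called for it earlier, from day 2 in wt, at -1.39 (SE 0.56, adjusted p = 0.041), and from day 2.5 in mat del. At day 4 its wt mean was 60.8-fold below day 0.

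Utf1 (chr7:139943789-139945112) held 7.91, 6.90, 7.51 and 8.06 log2 RPKM at wt day 0 and 7.54, 6.10, 5.29 and 7.02 at day 2, which overlapped. At day 4 it held 3.58, 0.61, 3.37 and 3.54, replicate 2 with 5 reads being the low one. The step from day 3 to day 4 was -2.01 (SE 0.71, adjusted p = 0.0399) in wt and passed in mat del as well (adjusted p = 0.036). It was called in 17 of 24 alternative settings in wt (adjusted p up to 0.373 over these settings) and in 18 of 24 in mat del (up to 0.401). Gdf3 and Utf1 were the 2 members called lower over this step in wt, against 17.6% of probes, and with Gbx2 the 3 called in mat del, against 17.6%. In mat del Utf1 lay at 7.73, 7.05 and 5.09 on day 0 and at 7.57, 6.49, 7.95 and 8.19 on day 1, overlapping. The last of these is replicate 4, whose levels are not on the scale of the other libraries. Utf1 was first called in mat del on day 4, at -3.48 (SE 0.76, adjusted p = 0.000132). Without mat del day 1 replicate 4, Nr0b1, Tdgf1, Pecam1 and Gbx2 were also called lower from day 3 to day 4 in wt, 6 members against 38.2% of probes, and in mat del Tdgf1 and Pecam1 joined, 5 members against 35.3%.

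Dppa3 (chr6:122626410-122630272) had moved least of the 10 by wt day 2. The wt libraries held 5.09, 5.94, 5.01 and 4.88 log2 RPKM at day 0 and 5.67, 5.45 and 5.62 at day 1, so that the mean was 0.35 higher without passing the test (adjusted p = 0.701). It held 4.64, 3.04, 5.03 and 4.55 at day 2.5 and 2.85, 0.33, 2.03 and 3.35 at day 4, where replicate 2 had 3 reads. Its first called day was day 3 in wt, at -1.77 (SE 0.58, adjusted p = 0.00642), and day 4 in mat del, at -2.24 (SE 0.63, adjusted p = 0.00194). In mat del, day 1 held 5.80, 5.66, 4.93 and 6.47, the last from replicate 4, whose levels are not on the scale of the other libraries. Its day 4 libraries held 2.51, 2.51, 2.48 and 2.24.

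Gbx2 (chr1:89927956-89931179) had no single direction. Its wt libraries held 3.86, 2.61, 3.54 and 3.67 log2 RPKM at day 0 and 2.33, 2.37 and 1.34 at day 1, all lower. They held 4.29, 5.50, 3.84 and 3.91 at day 2.5, all above day 1, and 3.41, 4.54, 1.78 and 0.23 at day 4. No wt day differed from day 0 by the test, with -1.41 (SE 0.83, adjusted p = 0.22) on day 1, 0.96 (SE 0.77, adjusted p = 0.263) on day 2.5 and -0.93 (SE 0.77, adjusted p = 0.283) on day 4. In mat del, day 3 held 3.56, 4.40, 4.09 and 3.71 and lay above all of day 0, as for 32.4% of the 34 probes. That difference from day 0 was 1.02 (SE 0.83, adjusted p = 0.287) and was not called. The mat del day 4 libraries held 2.88, 3.19, -2.21 and 1.03, a step from day 3 of -2.72 (SE 0.77, adjusted p = 0.00903). The lowest of these, replicate 3, rests on 7 reads. The step was called in 20 of 24 alternative settings, and edgeR on recovered reads gave -1.75 with adjusted p = 0.0653. The wt step from day 3 to day 4 was -1.85 (SE 0.77, adjusted p = 0.0779), which without mat del day 1 replicate 4 became -1.85 (SE 0.75, adjusted p = 0.0429); with the replicate block it had adjusted p = 0.0345, and the mat del difference of day 4 from day 0, -1.70 (SE 0.83, adjusted p = 0.0611), had 0.0328.

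Set in order by the share of the day 0 to day 4 difference that the wt mean had reached by day 2, the 10 falling members ran from Tfcp2l1 (104%), Sall4 (88.7%), Nr0b1 (68.5%) and Zfp42 (57.8%) through Fbxo15 (41.8%), Tdgf1 (38.5%) and Pecam1 (38.5%) to Gdf3 (23.4%), Utf1 (23%) and Dppa3 (18.1%). The mark of 50% was passed on day 1 by Tfcp2l1 and Sall4, on day 2 by Nr0b1 and Zfp42, on day 2.5 by Fbxo15 and on day 3 by the other 5. In mat del, with day 1 replicate 4 left out, it was passed on day 1 by Tfcp2l1, on day 2 by Sall4, Nr0b1 and Zfp42, on day 2.5 by Fbxo15 and Tdgf1, on day 3 by Gdf3 and Pecam1 and on day 4 by Utf1 and Dppa3. The 4 doubted libraries are that one and replicate 3 of wt day 2, mat del day 0 and mat del day 2.5. With them left out, mat del Utf1 (53%) and Dppa3 (55.6%) passed the mark on day 3, as in wt, and Fbxo15 on day 2. These shares are of group means with no error attached, and the order of neighbours was not tested. By first called day over all libraries, wt had 8 members in the middle (day 2 or 2.5: Zfp42, Utf1, Sall4, Gdf3, Fbxo15, Nr0b1, Tfcp2l1 and Tbx3), 3 late (day 3 or 4: Tdgf1, Dppa3 and Pecam1) and Gbx2 uncalled; without mat del day 1 replicate 4, 2 fell at once, 8 in the middle and Dppa3 alone late. In mat del over all libraries Nr0b1 fell at once, 3 members in the middle, 6 late and 2 were uncalled, and without that library 0 fell at once, 7 in the middle and 4 late, with Tbx3 uncalled. Without the 4 doubted libraries, 1 fell at once in mat del, 8 in the middle and 3 late. In wt these counts were 3, 7 and 1, with Gbx2 uncalled.

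**Figure D4:**
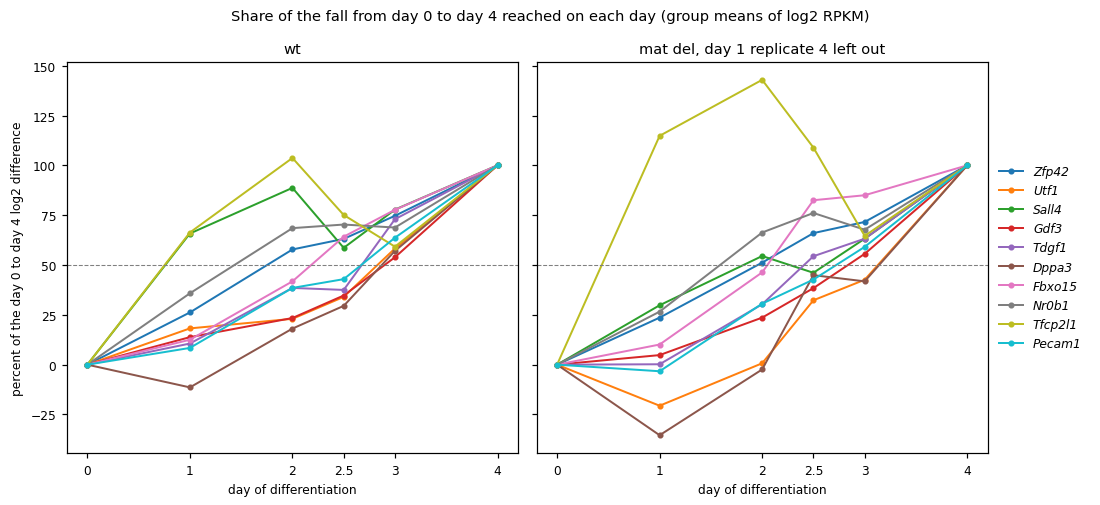
Percent of the day 0 to day 4 difference in mean log2 RPKM reached by each day, for the 10 members called lower at day 4, in wt and in mat del without day 1 replicate 4; the dashed line marks 50%. At wt day 2 the lines spread from 18.1% for Dppa3 to 104% for Tfcp2l1, and values below 0 are means above day 0.

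On the days between, 6 members were called lower than day 0 at wt day 2 (44.1% of probes), 7 at day 2.5 (35.3%) and 10 at day 3 (47.1%). In mat del there were 2 at day 2 (8.82%), 3 at day 2.5 (17.6%) and 3 at day 3 (20.6%). Without mat del day 1 replicate 4 the wt counts were 9, 9 and 10 (55.9%, 44.1% and 50% of probes) and those of mat del 3, 7 and 6 (23.5%, 35.3% and 32.4%). The mat del day 0 group has 3 libraries, and its replicate 3 lay below the other 2 for every member except Nr0b1. With all 4 doubted libraries left out, the mat del counts at day 2, day 2.5 and day 3 were 9, 6 and 9, against 55.9%, 32.4% and 47.1% of probes. With the replicate block, Utf1 and Sall4 were also called at mat del day 3 (adjusted p = 0.0346 and 0.0316), Tfcp2l1 at mat del day 2.5, Zfp42 at mat del day 2 and Tbx3 at wt day 2.5 (0.0308, 0.0339 and 0.0188). Mean change of the reference genes Ctnnb1 and Gsk3b from day 0 to day 4 was 0.61 log2 in wt and 1.05 in mat del. Falls taken relative to this mean are larger by that much, but the reference was not stable. Gsk3b rose by 1.08 in wt and 1.19 in mat del, and Ctnnb1 by 0.15 and 0.91. Without mat del day 1 replicate 4 the Gsk3b rises were called by limma (adjusted p = 0.00682 and 0.00652) and those of Ctnnb1 were not. With the 4 doubted libraries left out the mat del mean change was 0.46.

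The study differentiated these cells to follow Hox gene activation without maternal SMCHD1, and the factors show the course of differentiation. Between mat del and wt on matched days no member was called on any of the 6 days by limma, nor was any other of the 34 probes (0% on each day). Of the 72 member-by-day pairs, 2 had an unadjusted p under 0.05, Tdgf1 and Fbxo15 on day 1, both without reads in mat del day 1 replicate 4; edgeR on recovered reads also called 0. At day 0 all 12 members were lower in mat del, from -0.98 log2 for Tdgf1 to -0.26 for Gdf3, with a median of -0.65 against -0.65 over all 34 probes. With the 4 doubted libraries left out, 8 of 12 were lower, with a median of -0.12. At day 1 the lowest was Tdgf1, at -3.31, and without mat del day 1 replicate 4 the members lay between -0.61 (Tfcp2l1) and 0.62 (Utf1).

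On day 2 the genotype differences ran from -0.12 log2 (Tdgf1) to 0.82 (Tbx3), on day 2.5 from -1.29 (Tdgf1) to 0.86 (Tbx3) and on day 3 from -0.40 (Gbx2) to 0.41 (Fbxo15). On day 4, 10 members were higher in mat del, up to 1.02 for Gdf3, whose wt libraries held -1.35, -0.11, -1.52 and -0.29 log2 RPKM and whose mat del libraries held -0.17, 1.46, -0.59 and 0.09, overlapping. Gbx2 was the lowest at -1.27. The median standard error over the members was 0.71 on day 4 and the smallest adjusted p 0.954 by limma. The signed change from day 0 to day 4 was higher in mat del than in wt for every member except Gbx2: the 10 falling members fell less in mat del and Tbx3 lay further above day 0 there. The median of this difference was 1.00 log2, against 0.81 over all probes; no member passed the test of that difference, the smallest adjusted p being 0.797 with no member at an unadjusted p under 0.05 and 0% of probes called. With the 4 doubted libraries left out the median was 0.52.

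The 2i LIF lines show the members in naive cells, before any differentiation. Smchd1 was checked first: the wt lines held 106, 124 and 119 CPM (counts scaled to library size) and the mat del lines 64.2, 71.9 and 90.6, all lower, at a log2 fold change of -0.63 by edgeR's quasi-likelihood test (unadjusted p = 0.00231, adjusted p = 0.992 over 17696 genes). Of the 12 members 0 were called between genotypes, nor was any gene (0%); no member had an unadjusted p under 0.05, 397 genes did, DESeq2 also called 0 and edgeR's exact test called 2 genes, neither a member. The median log2 fold change of the members was -0.01, against -0.01 over all genes tested. The widest were Sall4, at 0.36, and Tfcp2l1, at 0.30, higher in mat del, and Nr0b1, at -0.29, lower, each with adjusted p = 0.992.

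All 12 members were expressed in 2i LIF. Tfcp2l1 had 592, 608 and 793 CPM in the wt lines and 676, 702 and 1078 in the mat del lines. Nr0b1 had 63.8, 48.8 and 48 and 59, 50.8 and 21.4. Utf1 varied most between lines of 1 genotype relative to its mean, with 103, 122 and 49.3 in wt and 130, 97.9 and 30.6 in mat del. Gbx2 had the fewest counts, 8.24, 9.28 and 5.59 and 10.3, 8.46 and 3.7, and Tdgf1 the most of these, 832, 849 and 1139 and 945, 832 and 1103. For these 5 genes the genotypes overlapped. Tbx3 had 91.8, 96.4 and 86.1 in wt and 106, 99 and 124 in mat del, and Fbxo15 297, 322 and 299 and 293, 295 and 288. Tbx3 was higher in every mat del line than in every wt line, and Fbxo15 lower, neither with an unadjusted p under 0.05. With 3 lines against 3 an exact two-sided permutation test cannot go below 0.1. The share of all genes that separate in this way was not counted, so no result is read from these 2 members. The 2i LIF counts are paired-end and on another scale, so no difference between 2i LIF and day 0 was computed.

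**Figure D5:**
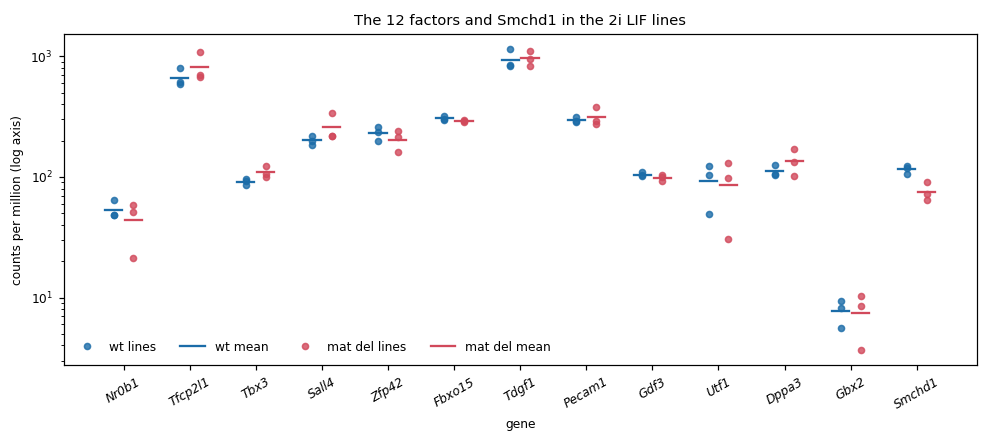
CPM, counts scaled to library size (y axis, log scale) of the 12 members and Smchd1 in the 3 wt and 3 mat del 2i LIF lines, 1 circle per line with a bar at the mean. The mat del lines lie at 64.2, 71.9 and 90.6 for Smchd1, below every wt line. Of the members, only Tbx3 and Fbxo15 do not overlap between genotypes, and the share of all genes that separate so was not counted.

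The pathways around the members were counted in the 2i LIF lines, where all 35591 genes of the count table could be used. None of the 20 genes of the wider pluripotency network passed the test, at a median log2 fold change of 0.05. None of the 12 genes of the Nodal pathway, to which the co-receptor Tdgf1 and the ligand Gdf3 belong, passed (median 0.04), nor did any of 7 of the LIF and STAT3 pathway upstream of Tfcp2l1 and Gbx2 (median 0.09) or of 5 primed state genes (median -0.12). The LIF and STAT3 genes summed to 717 to 730 CPM in wt and 791 to 808 in mat del, which did not overlap. The difference of these sums was not tested, and an exact two-sided permutation test of 3 against 3 cannot go below 0.1. How many genes or lists separate so was not counted, and no result is read from it. Markers of other cells were low: primitive endoderm genes summed to 8.56 to 10.6 CPM over all lines, fibroblast genes to 3.4 to 7.88 and 2-cell-like genes to 0.0287 to 0.417, while trophoblast genes summed to 85.8 to 131 in wt and 120 to 143 in mat del. Of those other-cell markers, 3 of 5 trophoblast, 3 of 5 fibroblast, 5 of 5 primitive endoderm and 1 of 4 2-cell-like genes had enough counts to be tested, and 0 were called; their part in the members' levels was not tested. In the time course, of the 8 factors left out here, 7 were called lower at wt day 4 and 5 at mat del day 4, and of the 14 differentiation and Wnt probes 10 were called higher in each genotype.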

How the data were processed

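RNA of mouse mESC libraries was sequenced (polyA selection, single-end for the time course and paired-end for 2i LIF). Per the labels and methods, reads were trimmed with Trim Galore 0.4.4 and mapped to GRCm38.p6 with HISAT2 2.0.5, and the authors computed log2 RPKM per gene; whether counting used strand is not given in the sources used here. The deposited log2 RPKM values were used for the time course. All 1530 of them passed as whole reads at 1 depth per library, with a gene of 0 reads listed at 0.9 reads. The tolerance of this check grew with the reads, so the highest values would pass at any depth and only low values inform it. The raw count columns deposited for the time course were not used (45 columns). The recovered reads equalled the count column of the same name in 7 libraries, one of another name only in 35 and none in 3. By the RPKM names Tbra was at most 0.92 log2 RPKM on days 0 to 2 and at least 5.06 from day 2.5 on. The count column named wt day 0 replicate 4 equalled wt day 2.5 replicate 1, with 8034 Tbra reads. For the days, this marker thus goes with the RPKM names. Which names are right for genotype and replicate was not settled, and those of the RPKM columns were followed here. The genotype, day and replicate of each time-course library rest on that choice. The deposited counts of the 6 2i LIF lines (27526359 to 126716460 per line) were used as they are. These lines have no RPKM columns, so their names could not be compared in this way.

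A linear model over the 12 groups of 45 libraries was fitted to all 34 probes with limma 3.58.1 in R 4.3.3, with no covariate, and adjusted p-values under 0.05 (Benjamini-Hochberg over the 34 probes) were called. Members called lower first at day 1 are at once, at day 2 or 2.5 middle and at day 3 or 4 late. The 2i LIF counts were tested with the quasi-likelihood test of edgeR 4.0.16 (TMM), with DESeq2 1.42.0 as an alternative. All 12 members are named. Members and lists were chosen with earlier results of these data known. Same-numbered libraries of 1 genotype come from the same line by their labels, and deviations from the group mean correlated at a median r of 0.17 over 103 such pairs (-0.36 to 0.85, 59 over 0.1) and of 0.30 over 20 pairs across genotypes (-0.40 to 0.67), so a fit with the replicate number as a block was an alternative. The fits were tested on simulated data.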

Additional observations from a re-analysis of the deposited data

Results flagged for a closer look

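In groups of 4 libraries, Dixon's test at 95% set apart 1 library in 11 of 108 groups of a member, where about 5.4 (1 in 20) would be set apart by chance. Mat del day 1 replicate 4 accounted for 4 of them, the members on chromosomes 9 to 19 and X with no reads there. It lay at -4.85 log2 RPKM for Tdgf1 (the others 6.49 to 7.63), at -5.21 for Fbxo15 (4.19 to 5.20), at -4.32 for Nr0b1 (2.17 to 2.65) and at -6.10 for Pecam1 (2.61 to 3.19).

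The other 7 were spread over members and days. In wt, Utf1 lay at 0.61 in day 4 replicate 2 (the others 3.37 to 3.58), Gdf3 at 2.07 in day 2.5 replicate 2 (3.30 to 3.45), Tfcp2l1 at 1.33 in day 3 replicate 4 (1.76 to 1.82) and Fbxo15 at 6.29 in day 0 replicate 1 (5.28 to 5.39). In mat del, Zfp42 lay at 1.81 in day 3 replicate 4 (3.59 to 3.69), Dppa3 at 2.24 in day 4 replicate 4 (2.48 to 2.51) and Fbxo15 at 3.97 in day 4 replicate 3 (1.20 to 1.29).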

How the results depend on the processing

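At day 4, 10 members were lower in wt (10 to 11 when a replicate was left out). The 10 in mat del became 6 to 11, with 6 without mat del replicate 1, which lost Sall4, Fbxo15, Tfcp2l1 and Pecam1. Between genotypes, per day, in the day 0 to day 4 change and in 2i LIF, 0 members were called in every setting run. No called value of a member reversed in any setting. The day 1 counts did not hold. In wt, where 0 were called, log2(RPKM + 1) gave 3, log2(RPKM + 0.1) gave 1, probes with a mean above 0 gave 1, the groups of the contrast alone gave 5 and library weights gave 4; leaving out a replicate gave 0 to 2. In mat del, where 1 was called, reference-gene centring, the groups of the contrast alone and line 1 alone each gave 0; leaving out a replicate gave 0 to 3, with 3 without mat del replicate 3.

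The replicate block gave 3 members at wt day 1 and 0 at mat del day 1. Over 120 member-by-day values it added 10 calls and took 2 away, those of Nr0b1 at mat del day 1 and Fbxo15 at mat del day 4. Beyond the values given in the report it changed no other call.

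The following settings were chosen after seeing the data. At wt day 1, the 4 doubted libraries left out gave 3, centring without mat del day 1 replicate 4 gave 1, edgeR on recovered reads without it gave 2, and the replicate block gave 5 without it and 5 without the 4 doubted libraries. At mat del day 1, leaving out the 3 libraries of high depth over counts gave 0, centring without mat del day 1 replicate 4 gave 2, the block without the 4 doubted libraries gave 4 and edgeR on recovered reads gave 0. The cause of these shifts was not tested. Reference-gene centring over all libraries lost 21 and gained 12 of 120 calls, and leaving out mat del day 1 replicate 4 lost 1 and gained 16. In that library both reference genes have no reads. The exact two-sided permutation test reached its smallest p, 0.0286, for the same 10 members at wt day 4 (4 against 4), while 3 against 4 cannot go below 0.0571 and 3 against 3 below 0.1, so it could not be used at day 1 or for mat del day 0. Depth limits Nr0b1 and Tbx3 most, with under 10 reads in 11 and 6 libraries.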
